A study of Mus musculus with 24 samples.

Results

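Chromosome 1 held 1993 of the 14279 windows of 100 bp that the study listed as differing in DNA 5-methylcytosine (5mC) between Tet2-KO and wild-type (WT) mouse embryonic stem (mES) cells. The members are every listed window on chromosome 1 of the mm10 genome. They were chosen by the same methylated-DNA immunoprecipitation (meDIP) reads that are described here, so their levels and directions are a description and were not tested. The study tested 4252847 windows across the genome and listed 0.336% of them, 0.279% as lower and 0.0568% as higher in Tet2-KO. On chromosome 1, 1880 members were lower and 113 were higher in Tet2-KO, and in every member the 3 Tet2-KO libraries lay beyond the 3 WT libraries, which the choice of the members favours.

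The groups compared are 3 libraries of WT mES cells and 3 of Tet2-KO mES cells, all 6 transfected with the siNC control siRNA and all made from DNA captured with an antibody to 5mC. Both lines were grown with serum, LIF, CHIR99021 and PD0325901 and were passaged off feeder cells. The labels give embryos as the tissue, and the WT and Tet2-KO lines were obtained from another laboratory. Whether each is 1 clone, and how the lines are related, is not stated in the sources used here. The 6 libraries held 8.92 to 15.4 M reads. The other 18 libraries of the series are siNsun2 libraries of both genotypes and captured and input libraries of a Pspc1-KO line and its WT. They are used below where their lists share a chromosome 1 window.

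TET2 is a dioxygenase that oxidizes 5mC, a step on the way to removal of the methyl group, and loss of a TET enzyme is usually discussed in terms of a gain of 5mC. In mammalian DNA 5mC sits mostly at CpG sites, and in embryonic stem cells much of it lies in transposable elements such as the intracisternal A-particle (IAP) family of endogenous retroviruses. meDIP reads count captured fragments, so a window gains signal with its methylated CpG sites and with the number of copies of its sequence in the DNA. The list holds no input library of either line. Less 5mC and fewer copies of a sequence in Tet2-KO DNA therefore cannot be told apart at any lower member, nor more 5mC and more copies at any higher member. The same holds for sequence differences between the lines that are unrelated to Tet2.

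The sequences below are the middle 100 bp of runs on which the results turn, read 5′ to 3′ on the forward strand of the reference. Each CpG site wholly inside the 100 bp is in capitals, and a site whose C is the last base is not. A run is a set of adjoining members of 1 direction. The first 6 come from lower runs and show the kinds of sequence with less signal in Tet2-KO, from tandem repeats to a sequence that occurs once in the reference (Mgat5).
Atp6v1h intron, chr1:5112601-5112700: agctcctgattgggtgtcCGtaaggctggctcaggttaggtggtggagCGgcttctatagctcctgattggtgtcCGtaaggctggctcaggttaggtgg
Uxs1 intron, chr1:43778201-43778300: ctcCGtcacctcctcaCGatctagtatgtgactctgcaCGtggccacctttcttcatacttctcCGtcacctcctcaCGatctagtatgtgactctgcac
Lct intron, chr1:128316701-128316800: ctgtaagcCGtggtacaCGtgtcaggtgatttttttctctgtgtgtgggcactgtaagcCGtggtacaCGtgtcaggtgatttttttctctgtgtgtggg
Mgat5 intron, chr1:127389301-127389400: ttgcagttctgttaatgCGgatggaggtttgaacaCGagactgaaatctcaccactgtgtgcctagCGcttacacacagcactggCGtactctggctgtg
Second-largest cluster, outside genes, chr1:170942801-170942900: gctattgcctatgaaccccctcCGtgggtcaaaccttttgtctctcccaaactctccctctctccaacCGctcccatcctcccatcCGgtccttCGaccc
Largest cluster, outside genes, chr1:171482501-171482600: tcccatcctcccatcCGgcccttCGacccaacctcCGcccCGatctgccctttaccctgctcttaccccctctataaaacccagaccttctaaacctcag

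The next 4 come from higher runs, of which the Prdm14 run is coding sequence, the next is a tandem repeat and the last pair lies outside genes with Platr5 as the nearest start, 5647 and 43347 bp away.
Prdm14 coding exon, chr1:13118801-13118900: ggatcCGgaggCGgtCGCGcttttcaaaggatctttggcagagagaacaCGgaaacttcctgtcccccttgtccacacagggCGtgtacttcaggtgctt
Tandem repeat outside genes, chr1:14051701-14051800: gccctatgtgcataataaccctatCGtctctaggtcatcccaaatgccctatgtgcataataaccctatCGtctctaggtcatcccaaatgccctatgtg
Outside genes, nearest start Platr5, chr1:88760801-88760900: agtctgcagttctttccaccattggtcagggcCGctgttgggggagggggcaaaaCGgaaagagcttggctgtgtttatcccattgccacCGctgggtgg
Outside genes, nearest start Platr5, chr1:88798501-88798600: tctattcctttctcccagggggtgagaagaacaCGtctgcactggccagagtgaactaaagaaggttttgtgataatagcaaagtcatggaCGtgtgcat

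The lower members were well covered in WT and close to empty in Tet2-KO. Levels are RPKM, reads scaled to window length and to the library's total reads. The median over the 1880 lower members was 21.7, 20.3 and 20.8 RPKM in the 3 WT libraries and 2.24, 2.13 and 2.12 RPKM in the 3 Tet2-KO libraries. The median log2 ratio of mean RPKM, with 0.1 RPKM added to both groups, was -3.21, and single members ran from -10.1 to -0.60. In 866 of them (46.1%) every Tet2-KO library had at most 3 reads, and in 272 (14.5%) every Tet2-KO library had 0. With such members set to the bound that 3 reads per library gives, the median log2 ratio was -2.49.

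The higher members mirrored this from a low WT level. Their median was 1.73, 2.26 and 1.95 RPKM in WT and 17.9, 17.8 and 19.8 RPKM in Tet2-KO. The median log2 ratio was 3.15, with a range of 0.75 to 7.4, and 2.31 with the 51 members (45.1%) at or under 3 reads in every WT library set to their bound. Only 10 higher members had 0 reads in all 3 WT libraries. The relative methylation score, a deposited fraction that corrects reads for CpG sites, had a median of 0.45 in WT and 0.20 in Tet2-KO at the lower members, and of 0.30 and 0.47 at the higher ones. The members nearest to the study's threshold were lower, from 24.8 to 33.2 RPKM in WT and from 7.63 to 13.0 RPKM in Tet2-KO. Windows just outside the threshold are not analysed here.

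**Figure D1:**
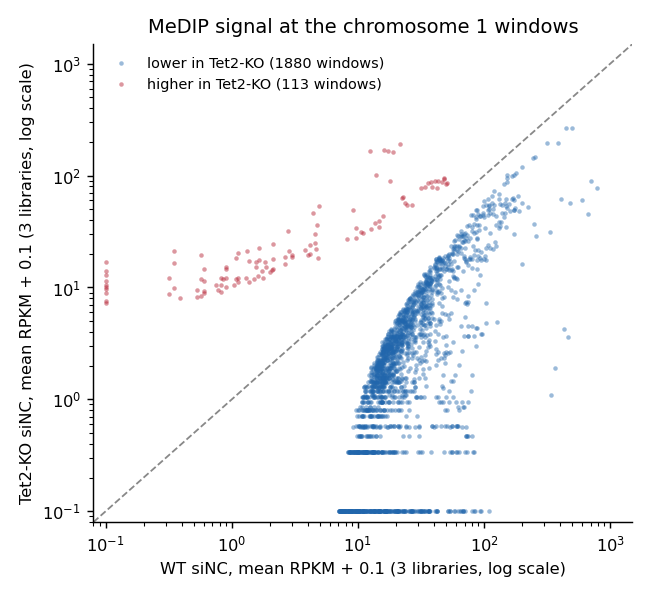
Mean RPKM of each member in WT (x axis) and Tet2-KO (y axis), 3 libraries each, with 0.1 added and log scales. Points are the 1880 lower (blue) and 113 higher (red) members, and the dashed line is equality. The bottom row of blue points holds the 272 members with 0 reads in all 3 Tet2-KO libraries.

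Scaling sets how many members count as higher. RPKM scales each library by its total reads. With TMM factors computed over the listed windows alone, 392 members were higher and 1601 lower, and with DESeq2 size factors 381 were higher and 1612 lower. These factors, by construction, centre a list in which most windows fell, and they raised the median log2 ratio of all listed windows by 1.88 and 1.85.

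Members were spread along the whole chromosome, but unevenly. They ran from chr1:3052901 to chr1:191934800, with 10.4 windows per Mb of known sequence, and lower members outnumbered higher ones in all 20 bins of 10 Mb. The bin from 170 to 180 Mb held 369 members, or 18.5%, of which 359 were lower. The bin from 0 to 10 Mb came next with 221, of which 217 were lower, although it has only 6.999 Mb of known sequence, and the bin from 120 to 130 Mb held 149, of which 144 were lower. The other bins ranged down to 3.44 members per Mb, against 36.9 per Mb in the most occupied bin and a median of 7.60 per Mb over the bins.

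Members without Tet2-KO reads were frequent in the most occupied bin, mostly within 2 clusters of runs. Of its lower members, 104 of 359 (29.0%) had 0 reads in all Tet2-KO libraries, against 168 of 1521 (11.1%) elsewhere on the chromosome. The median log2 ratio of its lower members was -4.12, and -3.10 elsewhere. In 202 of the 359 every Tet2-KO library had at most 3 reads, so the median of the bin rests on few reads. The 2 clusters, near 171 Mb, held 80 of these 104. Without them, 24 of 222 lower members of the bin (10.8%) had 0 reads in all Tet2-KO libraries and the median was -3.02, close to the rest of the chromosome. Repeat-masked sequence (at least 50% of the window in lower case in the reference) made up 50.4% of its lower members and 81.1% of the others. This bin includes the p200 family of interferon-inducible DNA sensors. No comparison between bins was tested.

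**Figure D2:**
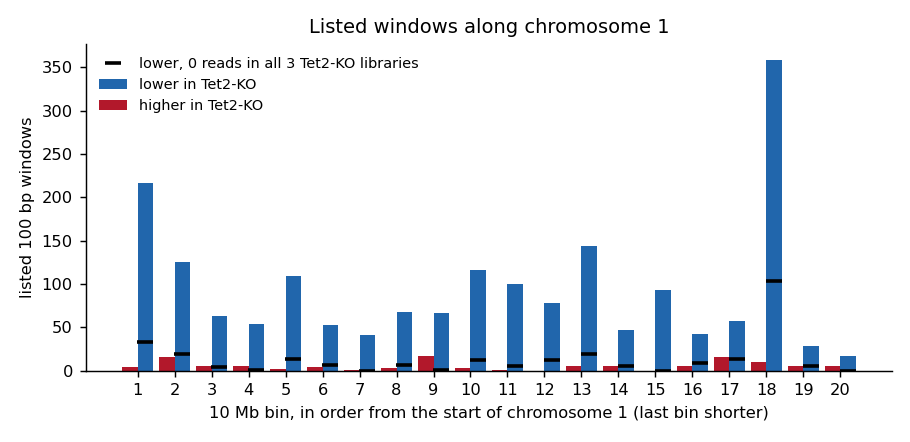
Members per 10 Mb bin in order along chromosome 1 (x axis), counted as higher (red bars) or lower (blue bars) in Tet2-KO. Black marks give the lower members with 0 reads in all 3 Tet2-KO libraries. Bin 18 holds 359 lower members, 104 of them at 0.

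Members came in short runs. The 1880 lower members formed 583 runs and the 113 higher members formed 50. Of the lower runs, 170 (29.2%) were 1 window, 300 (51.5%) were 2 to 4 windows, 99 were 5 to 9 and 14 were 10 or more, and these 14 held 240 members. Of the higher runs, 24 (48.0%) were 1 window, 21 were 2 to 4, 4 were 5 to 9 and 1 reached 13 windows. Adjoining windows share fragments, so the windows of a run are not independent measurements. The next lower run was a median of 88400 bp away, and 111 of 582 gaps were at most 1 kb. The median gap between higher runs was 1814000 bp. When runs of either direction at most 10 kb apart were joined, 455 clusters resulted, and 3 of them held both directions.

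CpG sites were frequent in both directions. The coupling factor, the deposited number of CpG sites per window, equalled the count in the reference sequence in 100% of members. Its median was 4 in lower and 3 in higher members, and no member had 0 sites. Over all 1919043 windows of chromosome 1 the median was 0 and the mean 0.77 sites. At least 4 sites stood in 57.5% of lower members, 34.5% of higher members and 2.80% of all windows. A window without CpG sites yields little in meDIP, so this is also a property of what the assay can list.

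The order of lower members by CpG sites went with the share of members with almost no Tet2-KO reads. Those with 1 or 2 sites had a median log2 ratio of -3.64, those with 3 or 4 had -3.28, those with 5 or 6 had -3.01 and those with 7 or more had -2.85. In the same classes 56.4%, 46.2%, 41.1% and 38.0% of members had at most 3 reads in every Tet2-KO library, where the ratio rests on few reads. With these set to their bound the medians were -2.43, -2.49, -2.52 and -2.49. The bound cuts most where such members are most frequent, so it cannot show whether an order exists. Among higher members the median at the bound was 2.55 for the 51 with 1 or 2 sites and 1.19 for the 14 with 7 or more, all of which lay in repeated sequence and began at a median of 34.9 RPKM in WT. The WT level and the copy number moved with the CpG sites there, and their part was not tested.

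**Figure D3:**
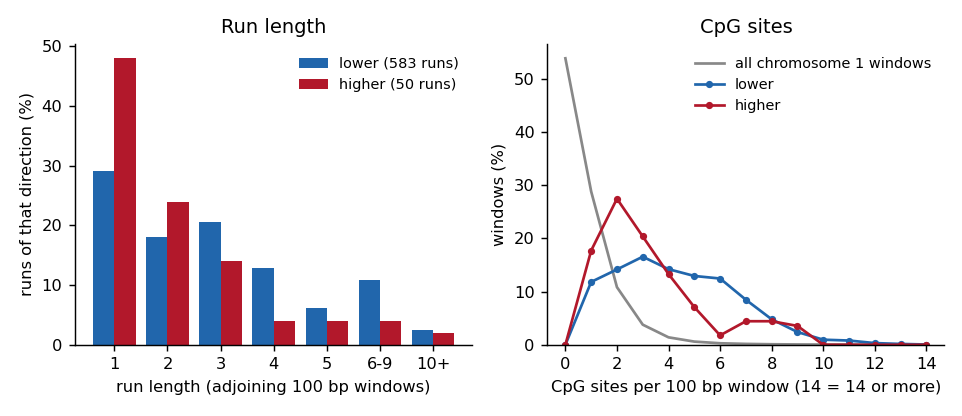
Left, percent of runs (y axis) by run length in adjoining 100 bp windows (x axis) for the 583 lower (blue) and 50 higher (red) runs. Right, percent of windows (y axis) by CpG sites per window (x axis) for lower members, higher members and all chromosome 1 windows (grey). Single windows make up 29.2% of lower and 48.0% of higher runs, and 53.8% of all chromosome 1 windows have 0 sites, while no member has 0.

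Repeated sequence made up more of the lower than of the higher members, and the higher ones were repeat-masked about as often as chromosome 1 as a whole. The middle 32 bases occurred once in the reference in 521 of 1879 lower members (27.7%) and in 77 of 113 higher members (68.1%). Over 100 copies were found for 714 lower members (38.0%) and 4 higher members (3.54%). At least 50% of the window was repeat-masked in 75.2% of lower and 29.2% of higher members, against 30.6% of all chromosome 1 windows. The share of single-copy windows over the whole chromosome was not counted. Reads of repeated sequence can be placed at any copy, so a level there is not tied to 1 locus. The 521 single-copy lower members had a median log2 ratio of -3.59, 17.8 RPKM in WT and 1.32 RPKM in Tet2-KO. The 714 members with over 100 copies had -2.82, 19.6 RPKM and 2.73 RPKM. With members at 3 reads or fewer set to their bound, the medians of these classes were -2.46 and -2.44. Such members made up 56.05% and 35.43% of these classes, so the medians at the bound cannot rank them.

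IAP elements were close to a part of the lower runs. The study designed a guide against the IAPEz subfamily, and its target, with CpG capitals, is shown because it places these elements on the chromosome.
IAPEz guide target: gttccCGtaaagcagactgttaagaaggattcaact
It occurred at 114 sites of chromosome 1, of which 30 (26.3%) lay within 1 kb of a lower run and 0 within 1 kb of a higher run. Lower runs and the 1 kb on each side cover 0.602% of the known sequence. The 35 lower runs near a target held 94 members. Their means were 31.3, 29.5 and 30.9 RPKM in WT and 7.03, 8.18 and 8.41 RPKM in Tet2-KO. Their median log2 ratio was -2.23, and 16 of the 94 members were single-copy.

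Other repeat primers of the study gave unequal shares. Those of the IAP family differed among themselves. The IAP5-F primer had 91 sites, 25 (27.5%) of them within 1 kb of a lower run, while IAP3-F had 0 of 131, IAP3-R had 0 of 108 and mIAP-F had 1 of 123 there. Within 3 kb, which covers 1.52% of the known sequence, the shares were 27.5% for IAP5-F, 19.1% for IAP3-F, 19.4% for IAP3-R and 20.3% for mIAP-F. The primers for the MusD family of endogenous retroviruses, mMusD-F and mMusD-R, had 3 of 5 and 3 of 13 sites within 1 kb. The MERVL-F primer, for the retrovirus family tied to the totipotent state, had 0 of 52. The mSINE-F primer, for short interspersed elements, had 1 of 45 sites within 1 kb and 4 (8.89%) within 3 kb, and mSINE-R had 2 and 8 (1.02%) of 785. The mLINE-F primer, for the autonomous LINE-1 retrotransposons, had 0 of 1202 within 1 kb and 79 (6.57%) within 3 kb, and its partner mLINE-R had 1 and 11 (0.931%) of 1181. Sites of 1 family share their sequence, and these counts were not tested.

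A run of 38 windows in an intron of Atp6v1h, which encodes a subunit of the proton pump that acidifies lysosomes, was the longest. At chr1:5110801-5114600 it had 58.6, 56.3 and 51.5 RPKM in WT and 0.560, 0.505 and 0.781 RPKM in Tet2-KO. Libraries 2 and 3 of each genotype did not differ beyond the sampling noise and were counted as 1 sample, which makes this 56.2 ± 3.33 against 0.601 ± 0.058 (mean ± SD, n = 2 each). All Tet2-KO values were below all WT values, as at every lower member. In 34 of the 38 windows each Tet2-KO library had at most 3 reads. The sequence matched itself at a shift of 57 bases over 79.6% of its length. Atp6v1h held 46 members in all, the most of any gene, of which 45 were lower and 1 was higher.

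The Lct gene, which encodes lactase, held 1 intronic run of 22 windows at chr1:128315701-128317900. Its levels were 54.7, 53.6 and 47.4 RPKM in WT and 1.02, 1.45 and 1.61 RPKM in Tet2-KO (52.6 ± 2.95 against 1.27 ± 0.361, n = 2 each). No other member lay in Lct, and 16 of these 22 were at most 3 reads in every Tet2-KO library.

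The Uxs1 run had the highest WT signal of the runs named here. Uxs1 encodes the enzyme that makes UDP-xylose for proteoglycans. Its 14 intronic windows at chr1:43777601-43779000 had 455.9, 424.3 and 423.0 RPKM in WT and 36.1, 42.3 and 42.4 RPKM in Tet2-KO. The sequence is a tandem repeat that matches itself at 61 bases over 95.6% of its length. The difference was uneven along the run. In 4 windows in the middle the Tet2-KO mean was 0.983 to 4.14 RPKM where WT had 337.8 to 462.1, and in the other 10 windows Tet2-KO had 31.02 to 90.1 RPKM.

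**Figure D4:**
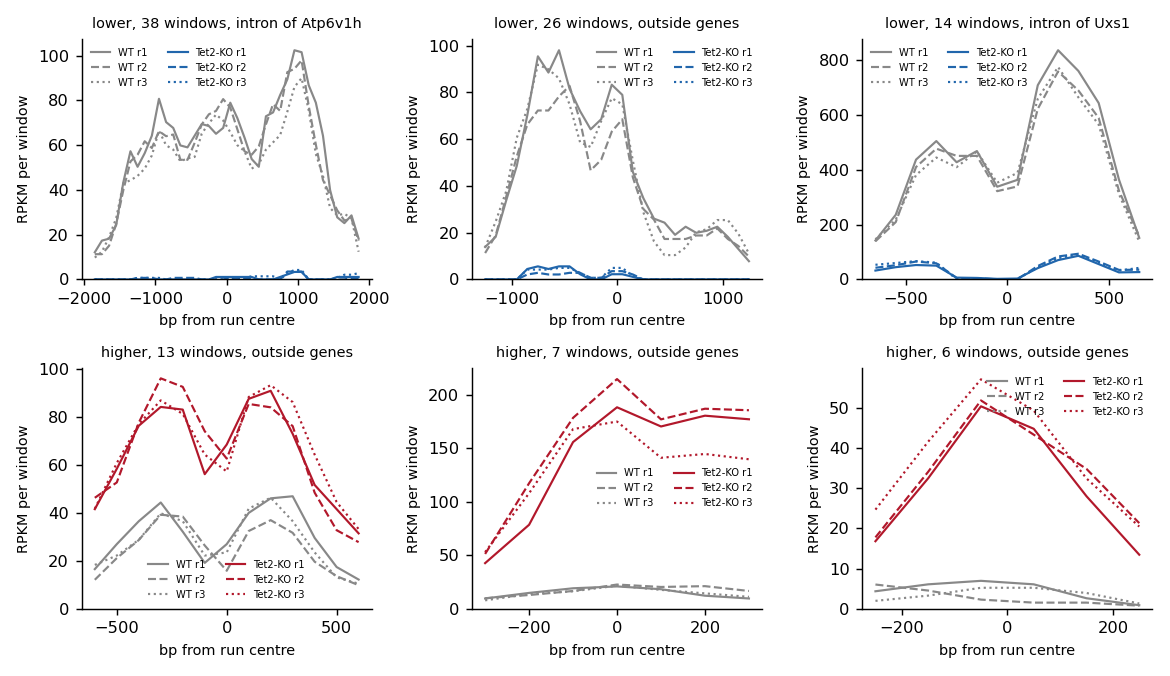
RPKM per 100 bp window (y axis) against distance in bp from the run centre (x axis) in each library, WT in grey and Tet2-KO in colour, line style by replicate. Top, lower runs of 38 windows in Atp6v1h, 26 windows outside genes and 14 windows in Uxs1. Bottom, higher runs of 13, 7 and 6 windows outside genes. In all 6 panels the 3 libraries of a genotype lie together, apart from the other genotype, which the choice of the members favours.

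The largest clusters stood close together near 171 Mb, outside annotated genes. The largest, at chr1:171481101-171491100, had 75 lower members in 8 runs, of which 52 had 0 reads in all Tet2-KO libraries and 66 had at most 3. Over its lower members WT had 37.2, 34.4 and 35.3 RPKM and Tet2-KO had 0.314, 0.616 and 0.593 RPKM. The second, at chr1:170941601-170950200, had 62 lower members, of which 28 were at 0, with 34.6, 30.3 and 31.5 RPKM in WT and 1.74, 1.501 and 1.80 RPKM in Tet2-KO. The clusters lie 530.9 kb apart and share sequence. Of the runs of 31 bases of the largest, 41.5% occurred in the second on either strand, and 46.5% the other way.

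Single runs within them were close to empty in Tet2-KO. At chr1:171481301-171483800, 25 windows went from 60.2, 52.9 and 57.2 RPKM to 0.090, 0.170 and 0.085 RPKM, at least 22.4-fold lower against the bound of 3 reads per library. At chr1:171485201-171486300, all 11 windows had 0 reads in all 3 Tet2-KO libraries, with 25.6, 18.8 and 18.0 RPKM in WT. At chr1:170947201-170949000, 18 windows went from 30.7, 28.2 and 24.8 to 0.187, 0.276 and 0.864 RPKM, at least 11-fold lower. The runs at chr1:170941601-170944200 and chr1:171486801-171488600 had 1.26 RPKM each on average in Tet2-KO, against 43.9 and 30.4 RPKM in WT.

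A cluster of 45 lower members at chr1:145527301-145535700 differed in degree. Tet2-KO had 15.5, 16.1 and 15.1 RPKM there, against 57.1, 56.3 and 57.1 RPKM in WT, and 0 of its members had 0 reads in all Tet2-KO libraries. The 4 largest clusters held 227 lower members and 34.2% of the members at 0 in Tet2-KO. Without them, the median log2 ratio of the remaining 1653 lower members was -3.02.

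Short runs with 0 reads in all Tet2-KO libraries also occurred where the middle 32 bases are found once in the reference. An intronic run of 3 windows in Mgat5, an N-glycan branching enzyme, at chr1:127389201-127389500 had 14.7, 13.3 and 19.8 RPKM in WT and 0 in Tet2-KO, at least 6.28-fold lower. A run of 3 windows at chr1:120096901-120097200, outside genes and 22827 bp from the nearest start, that of Tmem37, had 29.5, 31.1 and 23.5 RPKM in WT and 0 in Tet2-KO, at least 11.04-fold lower. Both have a median of 1 reference copy, although the second is 96% repeat-masked and the first 0%. Runs at chr1:40374101-40374400 (at least 10.8-fold lower) and chr1:116903101-116903500 (at least 7.21-fold lower), with a median of 36 and 76 copies, were likewise at 0.

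Among the longest higher runs, some had clear signal in WT and others almost none. At chr1:164224501-164225800, 13 windows outside genes had 30.3, 25.01 and 27.9 RPKM in WT and 64.8, 65.8 and 67.5 RPKM in Tet2-KO (28.4 ± 2.73 against 65.7 ± 1.28, n = 2 each). At chr1:191934301-191934800, 5 windows rich in CpG sites (median 8) had 46.0, 42.5 and 42.5 RPKM in WT and 81.8, 82.9 and 93.7 RPKM in Tet2-KO. Both are repeated sequence, with a median of 47 and 35 copies, and the groups did not overlap, as at every member. The tandem repeat at chr1:14051401-14052100, with a shift of 45 bases matching over 94.96% of its length, differed more. It had 14.9, 17.1 and 14.6 RPKM in WT and 141.9, 158.7 and 132.7 RPKM in Tet2-KO.

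Platr5, a non-coding gene named for its expression in pluripotent cells, was the gene with the nearest start to 3 higher runs, all outside genes and in single-copy sequence, the farthest 52147 bp away. At chr1:88760601-88761200, 6 windows had 4.48, 2.76 and 3.47 RPKM in WT and 31.01, 33.9 and 37.6 RPKM in Tet2-KO. At chr1:88798301-88798800, 5 windows had 0, 0.45 and 0.39 RPKM in WT and 18.6, 10.95 and 17.1 RPKM in Tet2-KO, at least 6.84-fold higher. At chr1:88807101-88807400, 3 windows had 0 in WT and 8.97, 7.82 and 12.9 RPKM in Tet2-KO, at least 4.36-fold higher. WT signal was low at all 3 runs, and Tet2-KO libraries lay above it throughout, as at every higher member.

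Prdm14 was the only gene of the pluripotency and early lineage list with a member. It encodes a PR-domain protein that maintains naive pluripotency and germ cell fate, and 3 higher members at chr1:13118701-13119000 overlapped its coding sequence, 8163 bp from its nearest start. Levels were 2.60, 1.76 and 2.60 RPKM in WT and 15.3, 17.8 and 18.1 RPKM in Tet2-KO (2.39 ± 0.296 against 16.6 ± 1.85, n = 2 each). All Tet2-KO values were above all WT values, as at every higher member, and the sequence is single-copy. The other 11 genes of that list, among them Sox17, Eya1, Klf7, Pax3, Gbx2, En1, Tfcp2l1, Nr5a2, Lefty1 and Lefty2, had no member within 1 kb. Over all protein-coding genes of chromosome 1, 127 of 1208 (10.5%) had one, so 1 of 12 is close to the background.

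The 3 higher runs of at least 3 windows in introns had a median of 1 reference copy of their middle bases. In Sbspon, at chr1:15866201-15866600, 4 windows, wholly repeat-masked, had 1.09, 1.32 and 1.79 RPKM in WT and 14.9, 18.7 and 20.6 RPKM in Tet2-KO. In Adgrb3, an adhesion receptor gene of neurons, at chr1:25178701-25179000, WT had 1.44, 0 and 1.52 RPKM and Tet2-KO had 13.1, 11.9 and 8.70 RPKM, at least 4.93-fold higher. In Traf3ip1, a gene of the ciliary transport machinery, at chr1:91520301-91520600, WT had 3.47, 3.01 and 5.86 RPKM and Tet2-KO had 23.5, 16.4 and 27.5 RPKM. The groups did not overlap at any of the 3 genes, as at every member. Runs outside genes at chr1:128797601-128797900 and chr1:182112501-182112900 had Tet2-KO means of 16.8 and 21.2 RPKM, from WT means of 1.5 and 1.92 RPKM, with a median of 1 and 55.5 copies. At the start of the non-coding gene E330020D12Rik, at chr1:153407501-153407800 (median 12 copies), WT had 12.7, 10.5 and 12.4 RPKM and Tet2-KO had 29.1, 41.7 and 33.6 RPKM.

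Genes near members were few. Of 1208 protein-coding genes of chromosome 1 in GENCODE M21, 124 held a member in the gene body, of which 102 held lower members alone, 12 held higher members alone and 10 held both. After Atp6v1h came Sntg1, a syntrophin gene, with 40 members in 15 runs, 38 of them lower, at 24.4, 22.2 and 24.4 RPKM in WT and 5.46, 7.09 and 6.53 RPKM in Tet2-KO. Among the next genes, Rab3gap1 and Tmem163 held 17 lower members each, and Gulp1 held 16. In Tmem163, the run of 11 windows at chr1:127590701-127591800 went from 85.2, 87.2 and 89.8 RPKM to 22.7, 28.3 and 23.9 RPKM, in sequence with a median of 357 copies. The non-coding genes Gm28928 and Gm29536 held 15 and 14 lower members. Counts are not scaled by gene length, and Sntg1 is a long gene.

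Lower runs touched exons about as often as the share of known sequence in exons. Outside annotated genes lay 378 of 583 lower runs (64.8%) and 21 of 50 higher runs (42%), where 54.2% of the known sequence lies. Introns alone held 179 lower runs (30.7%) and 18 higher runs (36.0%), against 41.0% of the sequence. An exon was touched by 26 lower runs (4.46%) and 11 higher runs (22.0%), against 4.82% of the sequence. A transcript start lay within 1 kb of 22 lower runs (3.77%) and 9 higher runs (18.0%), against 5.24% of the sequence. Runs are longer than 1 base, which raises their share that touches an exon, and these shares were not tested.

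Coding sequence was touched by 8 lower and 3 higher runs, and 10 of these 11 had a median of 1 reference copy. The genes named here were chosen after their values were seen. Genes touched by lower runs included Ncoa2, a nuclear receptor coactivator, Nuf2, a kinetochore protein, and Copa, a coat protein of vesicles, as well as Nos1ap, Casq1, Fmn2 and Taf1a. In Ncoa2, at chr1:13150501-13150700, WT had 16.1, 20.7 and 16.9 RPKM and Tet2-KO had 1.12, 2.13 and 2.83 RPKM. In Nuf2, at chr1:169525101-169525400, WT had 13.9, 12.0 and 14.8 RPKM and Tet2-KO had 0, 0.710 and 0 RPKM, at least 5.34-fold lower. Besides Prdm14, higher runs touched Npas2, a circadian transcription factor, and Itln1, an intelectin. In Itln1, at chr1:171531601-171531800, WT had 0, 0 and 1.63 RPKM and Tet2-KO had 8.97, 13.2 and 7.41 RPKM, at least 4.33-fold higher.

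A transcript start was inside 7 lower and 3 higher runs. Rgs20, a regulator of G-protein signalling chosen after its values were seen, had 7 single-copy lower windows over a start at chr1:5018101-5018800, with 43.4, 42.8 and 41.5 RPKM in WT and 7.85, 7.92 and 8.67 RPKM in Tet2-KO. Its relative Rgs8, chosen likewise, had 2 higher windows over a start at chr1:153661001-153661200, with 1.30, 0.755 and 1.30 RPKM in WT and 10.1, 13.5 and 8.82 RPKM in Tet2-KO, at least 4.76-fold higher. No expression was measured in these libraries.

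The other gene lists held few members, against the same background of 10.5%. Of the imprinted or germline list, 1 of 4 genes had one within 1 kb. This was Gpr1, the neighbour of the imprinted gene Zdbf2, with 6 lower members at chr1:63200101-63200700 that also cover a start of the non-coding gene Platr12. They had 17.6, 16.3 and 21.2 RPKM in WT and 4.67, 1.78 and 1.76 RPKM in Tet2-KO. Of the 13 annotated genes of the p200 list, 1 had a member, Ifi206, with 1 window at chr1:173488901-173489000 that had 20.8, 26.3 and 31.3 RPKM in WT and 0 in Tet2-KO. The Sp100 family (3 genes), the Ugt1a cluster (9 genes) and the clade B serpins (12 genes) had 0.

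The other chromosomes of the list are given for scale only. Chromosome 1 had 9.80 lower and 0.589 higher members per Mb of known sequence. Autosomes 2 to 19 ranged from 1.22 to 9.34 lower members per Mb, with a median of 2.61, and their median of higher members was 0.714 per Mb. The lower share was 94.3% on chromosome 1, 77.0% over autosomes 2 to 19 together and 96.4% on chromosome 12. The Y chromosome had 28.4 lower members per Mb, and 68.7% of its lower members had 0 reads in all Tet2-KO libraries, against 14.5% on chromosome 1 and 7.20% over autosomes 2 to 19, of which chromosomes 12 (18.8%) and 9 (15.1%) lay above chromosome 1. The median log2 ratio of lower windows was -3.21 on chromosome 1 and -2.49 on autosomes 2 to 19, and that of higher windows was 3.15 and 2.29. Single-copy windows made up 27.7% and 30.2% of lower windows, and 68.1% and 40.7% of higher windows. Windows are not replicates, so these differences were not tested.

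The other lists of the series held few windows on chromosome 1. Knockdown of Nsun2, an RNA m5C methyltransferase, gave 0 listed windows there in WT, where 0.000747% of all windows tested were listed, and 23 in Tet2-KO, where 0.0056% were. Of these 23, 5 were members, all lower in Tet2-KO. The comparisons share the Tet2-KO siNC libraries, so only each one's own values are given. At 4 members in Taf1a, a gene of the RNA polymerase I machinery, at chr1:183391001-183391400, WT siNC had 451.5, 383.2 and 392.6 RPKM, Tet2-KO siNC had 243.8, 233.3 and 214.8 RPKM and Tet2-KO siNsun2 had 138.6, 141.1 and 120.9 RPKM. At chr1:179585701-179585800 the values were 257.6, 252.9 and 242.9, then 158.0, 136.5 and 147.4, then 91.8, 79.3 and 88.3 RPKM. Of the 23, 11 were higher and 12 lower with siNsun2. Of the 18 that were not members, 11 lay between chr1:24612601 and chr1:24614200, 900 bp or more from any member, and were higher with siNsun2 at 83.9, 87.4 and 85.0 RPKM against 44.6, 50.1 and 46.6 RPKM. The other 7 were lower, as at chr1:13318701-13318800, where siNC had 248.8, 250.2 and 240.6 RPKM and siNsun2 had 176.4, 147.8 and 154.3 RPKM. Copies in the reference were not counted for the 11 higher windows, so their reads may come from other loci. A member nearby, in the pseudogene Gm28661, was not single-copy.

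Loss of Pspc1, an RNA-binding protein reported to bind TET2, gave 2 listed windows on chromosome 1, where 0.00571% of all windows tested were listed, and both are higher members of the run nearest to the Platr5 start at chr1:88760801-88761000. The captured libraries had 10.3, 7.81 and 8.67 RPKM in WT and 21.4, 21.9 and 19.1 RPKM in Pspc1-KO. The input libraries had 1.85, 0 and 0.340 RPKM in WT and 1.32, 0.465 and 0.95 RPKM in Pspc1-KO. These are too few input reads to compare copy number, and the captured groups lie apart by the choice of the windows. At the same windows WT siNC had 6.51, 1.89 and 5.21 RPKM and Tet2-KO siNC had 47.6, 47.6 and 53.3 RPKM. These comparisons share no library, but both sets of windows were chosen by their own contrast.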

How the data were processed

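The authors trimmed reads with Trimmomatic 0.39, aligned them to mm10 with Bowtie2 2.4.1 and removed duplicates with Picard, as far as the processing notes and methods list these tools. They counted reads in 100 bp windows with MEDIPS, kept windows with at least 10 reads, compared groups with edgeR and listed windows with a Bonferroni-adjusted p-value under 0.1. The deposited tables give, per library, counts, RPKM and a relative methylation score (a fraction), and per window the CpG coupling factor. The authors' fold changes were not used. Their p-values served to count the tested windows (adjusted divided by raw p-value) and to order members near the threshold. There were 0 per-sample columns that matched no sample.

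Library totals recovered from counts and RPKM were 8.92 to 14.2 M reads in Tet2-KO and 11.5 to 15.4 M in WT. Over the whole list, libraries 2 and 3 gave a chi-square per degree of freedom of 0.969 in Tet2-KO and 1.00 in WT, against 1.26 to 1.51 for the other pairs, and were averaged into 1 sample for mean ± SD. The study describes its genome-wide data as biological replicates, but the labels name no separate cultures and this pair did not differ beyond counting noise, so the spread may be technical. Ratios used the mean of 3 libraries. A fold against a group with at most 3 reads in every library is a bound, the mean of the other group's 3 libraries over the mean of 3 reads in each library, which covers counting error only. Sequence, repeat masking and copies of the middle 32 bases came from GRCm38.p6 (the mm10 sequence), genes and starts from GENCODE M21, and the IAPEz target and primers from the study's oligo list.

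The members and lists were chosen with earlier results of these data known. Runs named were, in each direction, the 6 longest, the 6 with the largest ratio among those of 3 or more windows, and the 4 longest in genes. Genes named were those these runs overlap, the 10 with most members, and list genes with a member within 1 kb, except that some genes are not reported here. The genes whose coding sequence or start a run touches were named outside this rule, after their values were seen. Clusters within 10 kb, tandem matching at shifts of 5 to 500 bases and the gene annotation of coding runs were chosen after seeing the data. No test across groups was made, since the members were chosen by the contrast itself. Direction calling was tested on simulated data with counting noise alone, where all 200 changed windows among 1993 kept their direction. The simulated baseline was set above the WT level, so this does not cover members with few reads in WT. Python 3.11.15, pandas 2.3.3 and R 4.3.3 with edgeR 4.0.16 and DESeq2 1.42.0 (scaling factors) were used.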

Additional observations from a re-analysis of the deposited data

How the results depend on the processing

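No paired analysis was possible because no result comes from a test. Leaving out 1 library in turn could not change a direction, because the libraries of the groups do not overlap at any member, so the counts of 113 and 1880 show no stability. It moved the median log2 ratio from 2.98 to 3.21 for higher and from -3.25 to -3.17 for lower members. TMM and DESeq2 factors gave 392 and 381 higher members, because they centre the list itself. Over the 113 and 1880 members as called by RPKM, the medians under these factors were 5.03 and 5.00 for the higher and -1.34 and -1.37 for the lower. A pseudocount of 1 RPKM gave 2.62 and -2.71, and bounds for members at 3 reads or fewer gave 2.31 and -2.49. In single-copy windows there were 521 lower members in 332 runs, the medians were 3.46 and -3.59 with 2 and 3 CpG sites, and 87.1% were lower. With 1 value per run the medians were 3.33 and -3.05, the higher runs had 2.5 CpG sites and 92.1% were lower. The most occupied bin held 16.6% of members with bins of 5 Mb and 15.2% of runs. Bridging gaps of up to 100 bp and 1000 bp gave 531 and 472 lower runs, and 47 and 45 higher runs. Single-copy windows formed 41 higher runs. The other settings, including at least 30 reads, stayed close to the values given. Depth limits members with 0 reads, whose ratio is a bound.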
